A study of Homo sapiens with 94 samples.

Results

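The genes CA11, KLHL4, DENND3, PAFAH2 and ACKR1 headed a ranking of rises over vehicle in mesothelioma xenografts 24 h after a single dose of K-975. K-975 is a small molecule that binds covalently in the lipid pocket of the TEAD transcription factors. The 5 genes, of 20239 in the table, were chosen by their values in 9 of the tumors described here. Among 268 genes that passed the test at 24 h with all 5 tumors given 200 mg/kg above all 4 vehicle tumors, these 5 had the highest differences in log2(FPKM + 1). Among all tested genes, without those 2 conditions, their differences ranked 3, 5, 8, 10 and 12 in the order named. FPKM are fragments per length of transcript and total of mapped fragments.

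NCI-H226 is an established line of human pleural mesothelioma with a deletion of NF2, and every tumor of the study carries it. The cells grew under the skin of female CB17 SCID mice, 6 to 8 weeks old, so all tumors come from 1 line in a host without mature lymphocytes. Mice received 30, 100 or 200 mg/kg of K-975 once, vehicle, or no treatment, and 94 tumors were sampled in 3 studies, which stand for 1 h, 3-6 h and 24 h. An arm held 5 tumors at 1 h and at 24 h (4 for vehicle at 24 h) and 10 tumors in 2 cage groups at 3-6 h (5 for untreated). Dosing was by mouth, in a vehicle of ethanol, Solutol and glucose. The dose of 200 mg/kg and the vehicle were given at 20 mL/kg and the lower doses at 10 mL/kg. No vehicle group had 10 mL/kg, so in comparisons of the lower doses with untreated tumors K-975 and its dosing cannot be told apart. Time and study coincide, as do arm and cage outside the 3-6 h study, and neither pair can be told apart.

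All 5 genes passed the filter on low values (4 or more libraries with an FPKM of 1 or higher), which left 13036 genes. The 3 libraries in which fewer than 10000 genes reached an FPKM of 1 (702, 7196 and 8531 genes) were left out of the fit of 91 libraries, and their values are given where they touch a result. The other libraries held 11344 to 11665 such genes. Mesothelial keratins and calretinin were high in all of them, with KRT5 between 461 and 1548 FPKM and CALB2 between 404 and 819 FPKM. The table holds no read counts, so the counting error of a level is unknown.

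The 5 genes belong to different families, and none is in the positive or the negative TEAD effector list of the study. TEAD proteins bind DNA and recruit the co-activators YAP1 and TAZ, which the Hippo pathway, with NF2 upstream, holds outside the nucleus. Well-known YAP1-TEAD targets encode secreted and adhesion proteins such as CCN1 and CCN2. The 5 genes are no part of that textbook set. CA11 encodes a secreted carbonic anhydrase-related protein that lacks the enzyme's activity. KLHL4 encodes a Kelch-like protein with a BTB domain, the family that supplies substrate adaptors to cullin ubiquitin ligases. DENND3 encodes an exchange factor for the small GTPase RAB12. PAFAH2 encodes a cytoplasmic hydrolase of platelet-activating factor and oxidized phospholipids. ACKR1, the Duffy antigen, is an atypical chemokine receptor best known on red cells and venular endothelium.

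At 24 h the dose of 200 mg/kg set the choice, so the differences from vehicle are a description with no test. The log2 differences were 1.90 for CA11, 1.70 for KLHL4, 1.63 for DENND3, 1.60 for PAFAH2 and 1.55 for ACKR1, with standard errors between 0.24 and 0.41. In the same contrast 3.8% of the tested genes (496 of 13036) were called higher by limma at an adjusted p under 0.05, and 470 were called lower. The 6th and 7th genes of the ranking, CARNS1 and SEPTIN4, lay just outside with differences of 1.51 and 1.47. The step from the 5th gene to the 6th is far under the standard error of 0.36 of ACKR1.

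**Figure D1:**
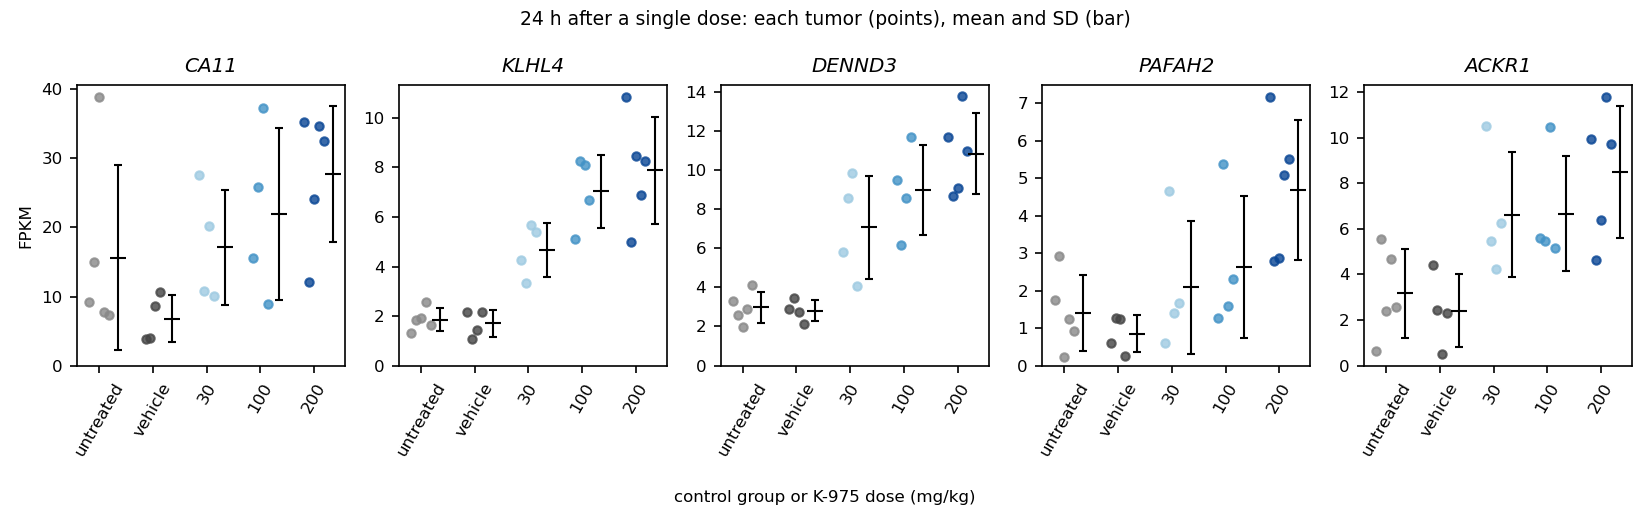
Levels of the 5 genes at 24 h. Each point is a tumor (FPKM, linear axis), by control group or dose of K-975 in mg/kg, and the bar beside it gives the mean and SD. KLHL4 and DENND3 show no overlap between the K-975 tumors at 100 or 200 mg/kg and the control tumors. For 200 mg/kg against vehicle the choice had required this of all 5 genes. How many of all genes lack such an overlap was not counted. For CA11 1 untreated tumor stands at 38.8 FPKM, above every K-975 tumor drawn (the shallow libraries are not drawn).

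KLHL4 gave the clearest separation. At 24 h its level was 1.30, 1.85, 1.91, 2.57 and 1.64 FPKM in the 5 untreated tumors and 2.17, 1.08, 1.42 and 2.17 FPKM in the 4 vehicle tumors. Under 30 mg/kg it was 4.26, 3.32, 5.68 and 5.41 FPKM, under 100 mg/kg 5.10, 8.28, 8.11 and 6.68 FPKM, and under 200 mg/kg 10.9, 5.00, 8.46, 6.89 and 8.24 FPKM. Every K-975 tumor of this study in the fit was above every control tumor. For 200 mg/kg against vehicle the choice had required this of all 5 genes, so that part is no result. The share of all genes with such a separation was not counted, nor was it for the separations of tumors given below.

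The groups at 30 and 100 mg/kg and the untreated tumors did not enter the choice, and their comparisons were tested with limma across all genes with Benjamini-Hochberg adjustment. Both share the untreated tumors. At 100 mg/kg KLHL4 was higher than untreated by 1.49 ± 0.24 (log2, SE; adjusted p = 0.000183), with 4 of 4 tumors above all 5 untreated ones. At 30 mg/kg the difference was 0.98 ± 0.24 (adjusted p = 0.0426), again with 4 of 4 tumors above. The call at 30 mg/kg was lost in 7 of 9 fits that left out 1 tumor. The call at 100 mg/kg held in all 9 such fits, with adjusted p between 0.000214 and 0.00472.

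DENND3 was next. Its level at 24 h was 3.29, 2.59, 1.98, 2.88 and 4.13 FPKM in untreated tumors and 2.91, 3.43, 2.76 and 2.15 FPKM in vehicle tumors. K-975 tumors had 5.79, 8.57, 9.83 and 4.06 FPKM under 30 mg/kg, 9.49, 6.16, 8.59 and 11.7 FPKM under 100 mg/kg, and 11.7, 8.68, 9.08, 13.8 and 11.0 FPKM under 200 mg/kg. Only 1 K-975 tumor in the fit, at 30 mg/kg, lay within the range of the controls.

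Against untreated tumors DENND3 was higher at 100 mg/kg by 1.32 ± 0.33 (limma adjusted p = 0.0170), in 4 of 4 tumors above all untreated ones. At 30 mg/kg the difference of 0.98 ± 0.33 did not pass (adjusted p = 0.191), with 3 of 4 tumors above. Without the tumor numbered 3 of the 100 mg/kg group, the adjusted p at 100 mg/kg was 0.0715, and it was 0.0513 when only the groups compared entered the fit. The gene lies at chr8:141128612-141195807 on the plus strand (GRCh38), and an antisense gene, AC040970.1, overlaps its first 1350 bases. The counting is not stated to use strand, so reads of that overlap cannot be told apart.

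ACKR1 had higher means at every dose at 24 h, but those tested did not pass. It stood at 0.662, 5.54, 2.40, 4.66 and 2.59 FPKM in untreated and at 4.41, 2.43, 0.501 and 2.33 FPKM in vehicle tumors. The K-975 tumors gave 10.5, 5.47, 4.25 and 6.26 FPKM at 30 mg/kg, 5.58, 5.49, 10.4 and 5.15 FPKM at 100 mg/kg, and 9.94, 4.64, 6.38, 11.8 and 9.71 FPKM at 200 mg/kg. Treated and untreated tumors overlapped at all doses.

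Relative to untreated tumors the differences of ACKR1 were 0.98 ± 0.36 at 100 mg/kg (limma adjusted p = 0.148) and 0.96 ± 0.36 at 30 mg/kg (adjusted p = 0.254). Their unadjusted p-values in limma were 0.00791 and 0.00918, with 2 of 4 tumors above all untreated ones at each dose.

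CA11 was the most abundant of the 5, and at 24 h its SD among controls was the largest in FPKM (10.7, n = 9). Relative to the mean, PAFAH2 and ACKR1 varied more among the vehicle tumors, with an SD of 58.7% and 66% against 50% for CA11. Among the untreated tumors the order was the reverse, with 71.6% and 61.1% against 85.3% for CA11. Untreated tumors gave 9.19, 15.0, 38.8, 7.76 and 7.38 FPKM, and vehicle tumors 3.90, 3.96, 8.61 and 10.6 FPKM. The values were 27.5, 10.7, 20.2 and 10.1 FPKM at 30 mg/kg, 15.5, 25.9, 37.3 and 8.87 FPKM at 100 mg/kg, and 35.2, 12.2, 24.1, 34.7 and 32.5 FPKM at 200 mg/kg. No K-975 tumor in the fit exceeded the highest untreated tumor.

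The vehicle tumors, which chose the gene, were lower in CA11 than untreated tumors by 0.92 ± 0.41 on the log2 scale, a description with no test. Set against untreated tumors, CA11 differed by 0.57 ± 0.41 at 100 mg/kg (limma adjusted p = 0.536) and by 0.29 ± 0.41 at 30 mg/kg (adjusted p = 0.842), intervals of -0.25 to 1.38 and -0.52 to 1.11. Leaving out 1 tumor moved these differences between 0.26 and 0.95 and between 0.04 and 0.68, with 0 calls in 9 fits each. At 200 mg/kg the mean was 27.7 ± 9.79 FPKM (SD, n = 5), 0.98 above untreated on the log2 scale and 1.90 above vehicle.

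PAFAH2 was the lowest of the 5 in level. It stood at 1.74, 2.94, 0.228, 1.26 and 0.912 FPKM in untreated and at 0.614, 1.28, 1.25 and 0.260 FPKM in vehicle tumors at 24 h. The levels were 0.605, 4.66, 1.40 and 1.68 FPKM at 30 mg/kg, 1.27, 5.39, 1.58 and 2.30 FPKM at 100 mg/kg, and 7.15, 2.80, 2.87, 5.10 and 5.51 FPKM at 200 mg/kg. At 30 and 100 mg/kg all but 1 tumor each of those in the fit lay within the untreated range.

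In limma PAFAH2 differed from untreated by 0.57 ± 0.40 at 100 mg/kg (adjusted p = 0.523) and by 0.30 ± 0.40 at 30 mg/kg (adjusted p = 0.834). The mean was 2.09 ± 1.77 FPKM at 30 mg/kg (SD, n = 4), 2.64 ± 1.89 FPKM at 100 mg/kg (n = 4) and 4.69 ± 1.86 FPKM at 200 mg/kg (n = 5), and no difference between the lower doses was detectable (adjusted p = 1). The pseudocount of 1 exceeds the vehicle mean of 0.851 FPKM, so its log2 differences understate the change in level.

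In counts, 2 of the 5 genes were called higher at 100 mg/kg against untreated tumors, where 1.07% of all tested genes were. At 30 mg/kg it was 1 of 5, where 0.253% were. Between 100 and 30 mg/kg none of the 5 was called by limma (0 of 5 also at an unadjusted p under 0.05), where 0% of genes were called higher and 683 had an unadjusted p under 0.05. The differences between these doses ran from 0.02 for ACKR1 to 0.51 for KLHL4, whose interval reached from -0.0016 to 1.01. With all 94 libraries, neither dose gave a called member against untreated (KLHL4 0.89 at 100 mg/kg, adjusted p = 0.307, and 0.49 at 30 mg/kg, adjusted p = 0.239). The shallow library of the 100 mg/kg group listed CA11 at 93.7 FPKM and the other 4 genes at 0, and that of the 30 mg/kg group listed all 5 at 0.

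At the earlier times no member passed the test at any dose. In the 30 comparisons of a member with vehicle at 1 h and 3-6 h, 15 were above 0 and 15 below, none was called, and the lowest adjusted p was 0.508. The log2 differences ran from -0.63 (CA11, 30 mg/kg, 1 h) to 0.46 (PAFAH2, 100 mg/kg, 1 h).

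At 3-6 h the share of all genes called higher was 0.00767% for 30 mg/kg, 0.13% for 100 mg/kg and 0.0153% for 200 mg/kg, and 0 of 5 members had an unadjusted p under 0.05 at any dose. KLHL4 averaged 4.52 FPKM in vehicle tumors (n = 10) and 5.57 ± 1.79 FPKM under 200 mg/kg (SD, n = 10), with a log2 difference of 0.23 ± 0.16 and an interval of -0.09 to 0.56. DENND3 reached 9.08 ± 4.13 FPKM at 100 mg/kg against 6.37 ± 2.45 FPKM in vehicle tumors (0.43 ± 0.22, adjusted p = 0.508). ACKR1 averaged 8.68, 8.82 and 9.55 FPKM at the 3 doses against 6.98 ± 2.61 FPKM in vehicle (adjusted p between 0.747 and 0.871). In ACKR1 the tumors of all arms overlapped widely.

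At 1 h the shares of all genes called higher were 0%, 0% and 0% at 30, 100 and 200 mg/kg, while an unadjusted p under 0.05 was found for 571, 648 and 435 genes and for 0 of 5 members. CA11 was the only one whose mean was lower at each dose than in vehicle tumors by over 0.3 on the log2 scale, at 9.29, 9.66 and 10.5 FPKM against 15.6 ± 8.15 FPKM (adjusted p = 1, 0.953 and 1). The shallow library of the 200 mg/kg group listed PAFAH2 and ACKR1 at 0 and CA11 at 20.3 FPKM.

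**Figure D2:**
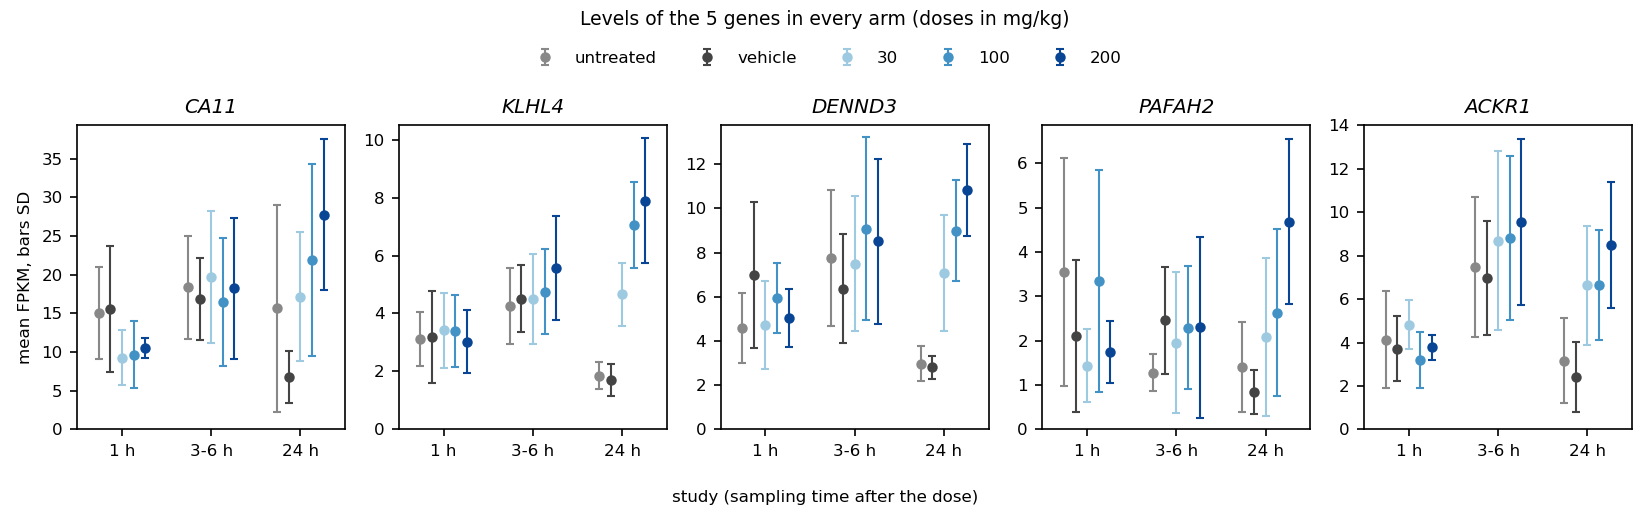
Mean FPKM (points) and SD (bars) of the 5 genes in every arm of the 3 studies, with K-975 doses in mg/kg. At 24 h all K-975 arms are above both control arms for each gene, and for KLHL4, DENND3 and ACKR1 the controls of that study are also the lowest of the 3 studies.

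A change of the 100 mg/kg effect with time was tested as a difference of differences against the untreated tumors of each study, which leaves out the tumors that chose the genes. That effect holds both K-975 and the dosing with vehicle, which untreated mice did not receive. For KLHL4 the effect was larger at 24 h than at 3-6 h by 1.37 ± 0.31 (limma adjusted p = 0.0191) and larger than at 1 h by 1.41 ± 0.33 (adjusted p = 0.0248). The other 4 members did not pass in either test. DENND3 differed by 1.16 ± 0.43 (adjusted p = 0.216) and 0.99 ± 0.45 (adjusted p = 0.295), and ACKR1 by 0.76 ± 0.46 (adjusted p = 0.541) and 1.24 ± 0.49 (adjusted p = 0.211).

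One of 5 members was thus called in each, where 0.23% of all genes were called higher for 24 h minus 3-6 h and 0.276% for 24 h minus 1 h. Both calls of KLHL4 depend on single tumors: leaving out 1 tumor gave 20 of 24 and 12 of 19 calls, with adjusted p up to 0.0749 and 0.093. In all 94 libraries the differences were 0.77 and 0.81 (adjusted p = 0.877 and 0.909).

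**Figure D3:**
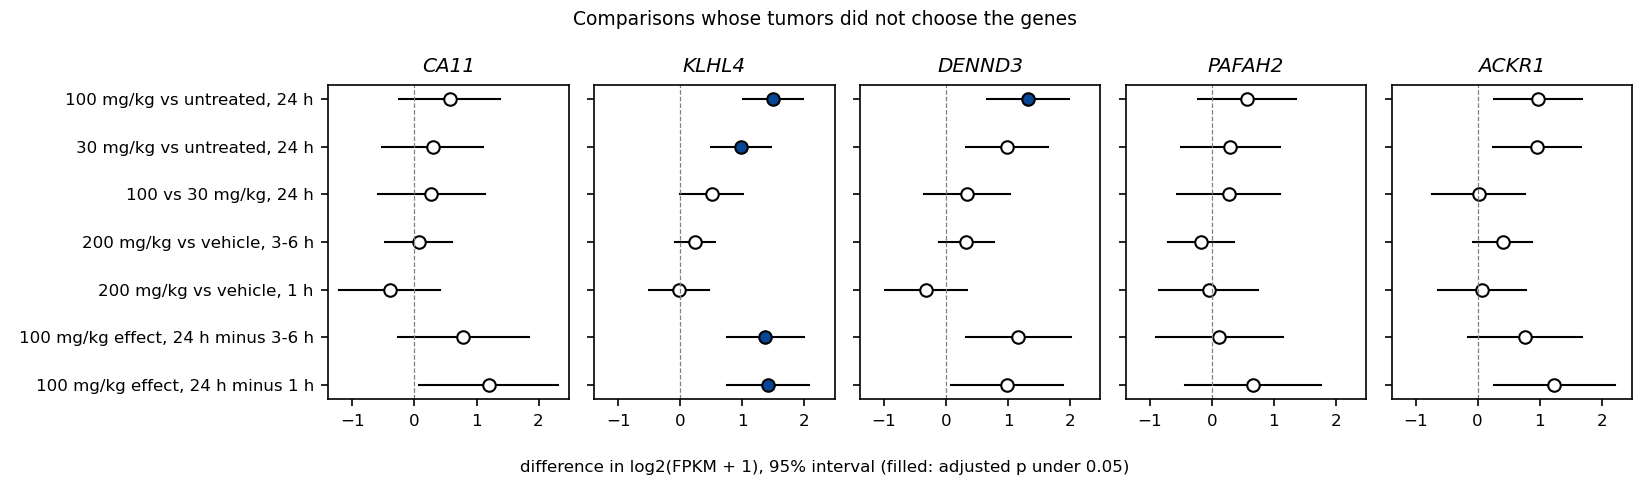
Differences in log2(FPKM + 1) with 95% intervals for comparisons in which none of the tumors that chose the genes took part. Filled points have a limma adjusted p under 0.05: KLHL4 in 4 of the 7 comparisons drawn, DENND3 in 1 and the others in none.

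The level of the controls moved between studies as well. KLHL4 averaged 1.79 ± 0.48 FPKM in the 9 control tumors at 24 h, 3.16 ± 1.23 FPKM in 10 at 1 h and 4.43 ± 1.17 FPKM in 15 at 3-6 h (SD). DENND3 stood at 2.90 ± 0.66, 5.78 ± 2.76 and 6.83 ± 2.65 FPKM in the same order, and ACKR1 at 2.84 ± 1.73, 3.93 ± 1.81 and 7.14 ± 2.72 FPKM. The controls of DENND3 overlapped, with a highest value of 4.13 FPKM at 24 h and a lowest of 2.49 FPKM at 3-6 h.

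The untreated tumors of the studies were therefore compared, a test chosen after these values were seen. Between 24 h and 3-6 h, KLHL4 was lower by 0.87 ± 0.23 in log2 (-0.87, limma adjusted p = 0.0156) and DENND3 by 1.10 ± 0.31 (-1.10, adjusted p = 0.0257), each with 5 of 5 tumors below all untreated tumors at 3-6 h. ACKR1 was lower by 1.07 ± 0.34 (-1.07, adjusted p = 0.0498), with 3 of 5 tumors below. How many of all genes separate the tumors in this way was not counted. This call of ACKR1 was lost without a filter (adjusted p = 0.0835), with quantile normalization (0.0727), with upper-quartile scaling (0.0514), in eBayes without trend and robust (0.0523) and with only the groups compared (0.152). CA11 (-0.43, adjusted p = 0.624) and PAFAH2 (-0.0042, adjusted p = 0.999) did not pass. These 3 of 5 members, 2 of 5 under those alternatives, compare with 2.14% of all genes called lower and 289 genes called higher. With vehicle tumors in place of untreated ones, the difference was -0.88 for DENND3 and -1.24 for CA11. The vehicle tumors of 24 h chose the genes, so both values are a description with no test.

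Between 24 h and 1 h none of the 5 was called, where 0.00767% of genes were called lower. KLHL4 and PAFAH2, both lower at 24 h, had an unadjusted limma p under 0.05, as had 1305 of 13036 genes. Between 3-6 h and 1 h none was called either, where 0.0307% of genes were called lower and 0.069% higher. At an unadjusted limma p under 0.05, DENND3 (0.63) and ACKR1 (0.72) were higher at 3-6 h and PAFAH2 (-0.84) was lower. That limit was passed by 1206 genes. Leaving out 1 tumor at a time brought the 3 calls between 24 h and 3-6 h down to 0 without the untreated 24 h tumor numbered 1 and to 1 without each of 4 other tumors. With all 94 libraries none was called (adjusted p of at least 0.798 for these 3 genes).

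**Figure D4:**
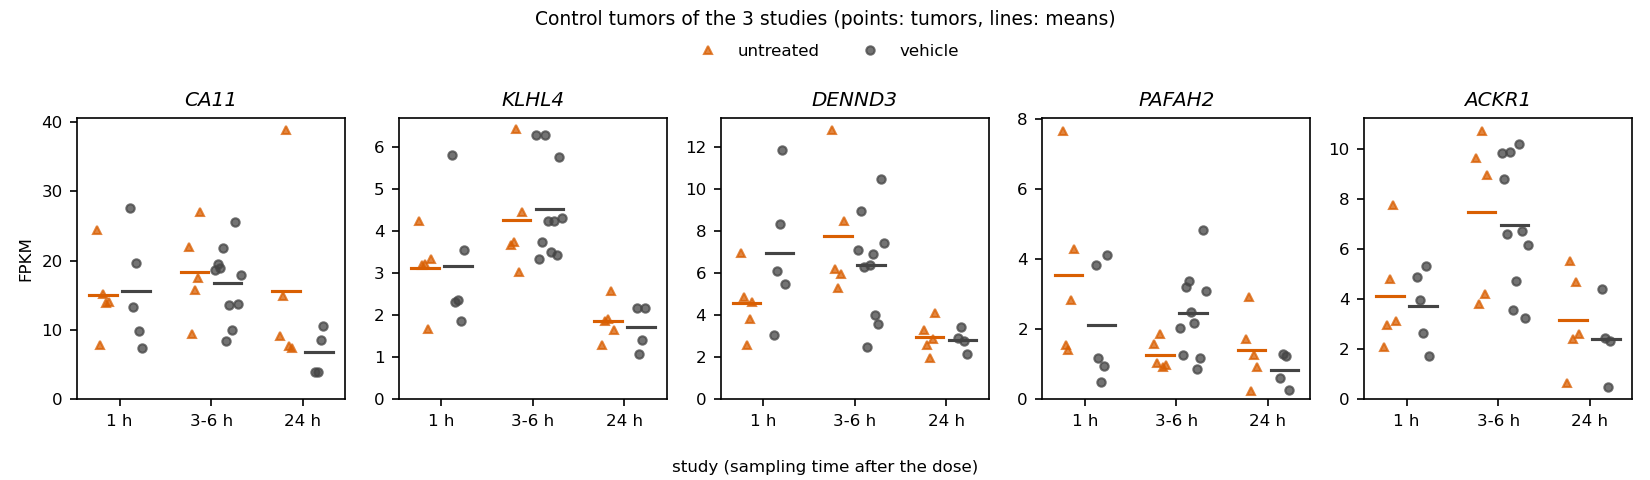
Untreated (triangles) and vehicle (circles) tumors of the 3 studies for each gene, in FPKM, with lines at the means. KLHL4 and DENND3 controls at 24 h lie in a narrow band under most controls of the other studies, and 1 untreated CA11 value at 24 h stands apart at 38.8 FPKM.

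Set side by side, with no test since the samples at 200 mg/kg chose the genes, the K-975 tumors at 24 h were not all above the controls of the other studies. KLHL4 at 200 mg/kg ranged from 5.00 to 10.9 FPKM against 3.03 to 6.42 FPKM in the 3-6 h controls. DENND3 at 200 mg/kg ranged from 8.68 to 13.8 FPKM and the 3-6 h controls from 2.49 to 12.8 FPKM. ACKR1 at 200 mg/kg, 4.64 to 11.8 FPKM, lay over almost the same range as the 3-6 h controls, 3.26 to 10.7 FPKM. For ACKR1 the 3-6 h arms of K-975 averaged more than the 24 h arm at 200 mg/kg (8.49 ± 2.90 FPKM, n = 5). In order of mean level over the 15 arms, vehicle at 24 h was the lowest for all 5 genes, and 200 mg/kg at 24 h was the highest for 4 and the 12th for ACKR1.

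No effect of vehicle itself on the 5 genes was called at the earlier times. Against untreated tumors, 0 of 5 were called at 1 h and 0 of 5 at 3-6 h (also 0 at an unadjusted p under 0.05), where limma called 0% and 0% of all genes higher and 616 and 629 genes had an unadjusted p under 0.05. PAFAH2 had the largest differences, -0.55 ± 0.38 at 1 h and 0.54 ± 0.33 at 3-6 h. Vehicle and untreated tumors of PAFAH2 overlapped at both times.

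Between the 2 cage groups of an arm at 3-6 h, none of the 20 differences of a member was called (lowest adjusted p = 0.65). All genes called higher made up 0% for 30 mg/kg, 0.0307% for 100 mg/kg, 0% for 200 mg/kg and 0.268% for vehicle, and at 30 and 200 mg/kg 829 and 924 genes had an unadjusted p under 0.05. At 100 mg/kg PAFAH2 was at 1.78 to 5.40 FPKM in one cage group and at 0.822 to 1.95 FPKM in the other (-0.76 ± 0.38, limma adjusted p = 0.65), which alone among these 20 had an unadjusted p under 0.05. Which of these cages stands for 3 h and which for 6 h is not in the labels.

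Only PAFAH2 and KLHL4 are shown by sequence, to set their upstream regions beside each other. In the RefSeq promoter table (GRCh38.p14; 250 bases before to 50 after each start) these 2 of the 5 genes had an entry that was used. The bases before the first annotated start are printed 5′ to 3′, at chrX:87517552-87517748 on the plus strand for KLHL4 and at chr1:25998158-25998313 on the minus strand for PAFAH2, and CG dinucleotides are in capitals.
KLHL4: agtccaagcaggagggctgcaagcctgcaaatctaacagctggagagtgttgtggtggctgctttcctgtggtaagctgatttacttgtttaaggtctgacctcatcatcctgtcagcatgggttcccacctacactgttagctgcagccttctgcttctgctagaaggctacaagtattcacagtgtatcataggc
PAFAH2: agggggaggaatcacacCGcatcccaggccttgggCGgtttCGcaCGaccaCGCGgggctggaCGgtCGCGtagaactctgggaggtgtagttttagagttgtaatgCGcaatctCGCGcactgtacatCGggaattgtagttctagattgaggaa

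The KLHL4 stretch holds 0 CG in 197 bases and the PAFAH2 stretch 13 in 156. In the full windows of 300 bases KLHL4 had 2 CG and 48.3% G and C, and PAFAH2 had 22 CG and 53.3%. Over 35116 promoters of that length the median was 14 CG, with quartiles of 4 and 28, so KLHL4 lies under the lower quartile. Neither window held the TEAD core CATTCC (in 14% of all promoters on either strand), the AP-1 motif TGANTCA (7.71%), the E-box CACGTG (7.26%), the FOXO motif GTAAACA (3.42%) or the ETS motif CCGGAAG (10.3%). That says only that these letters are not in these windows.

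By position, CA11 lies at chr19:48637942-48646312 on the minus strand, 503 bases from DBP, a clock-controlled transcription factor gene on the same strand. DBP averaged 6.31 ± 4.58 FPKM at 200 mg/kg and 1.74 ± 1.17 FPKM in vehicle tumors at 24 h (SD, n = 5 and 4; log2 difference 1.27, limma adjusted p = 0.112). CA11 also overlaps SEC1P on the opposite strand over 8242 bases.

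ACKR1 lies at chr1:159203307-159206500 on the plus strand, and the end of CADM3, a cell adhesion molecule gene on the same strand, overlaps its first 7 bases. CADM3 was far more abundant, at 59.3 ± 16.7 FPKM in vehicle and 113 ± 30.3 FPKM at 200 mg/kg at 24 h, and was called higher there (0.91, limma adjusted p = 0.0296). It was also lower in untreated tumors at 24 h than at 3-6 h (-0.98, adjusted p = 0.0167). Across 91 libraries, which share studies and arms, ACKR1 and CADM3 had a Pearson's r of 0.78 on log2(FPKM + 1), and 0.71 in the 34 control libraries. Within the studies r was 0.51 at 1 h (n = 24), 0.68 at 3-6 h (n = 45) and 0.75 at 24 h (n = 22). The ACKR1 level was 4.20 ± 3.17% of that of CADM3 in vehicle, 5.30 ± 2.83% in untreated and 7.52 ± 2.02% at 200 mg/kg at 24 h (SD), and these ranges overlapped. CADM3-AS1 covers all of ACKR1 on the opposite strand. Reads that run past CADM3, or come from the other strand, cannot be told apart from ACKR1 reads here.

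**Figure D5:**
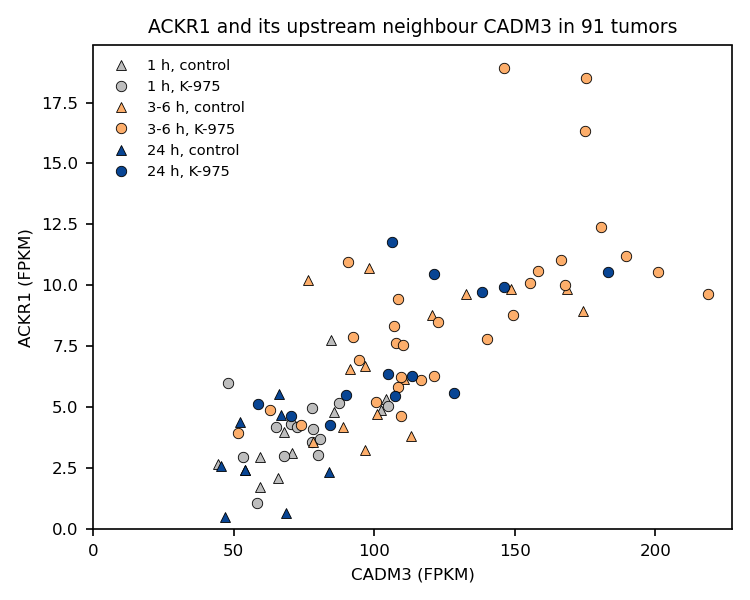
ACKR1 against CADM3 (both FPKM, linear axes) in the 91 tumors of the fit, coloured by study, with triangles for control and circles for K-975 tumors. The genes ran together within each study, and the 24 h control tumors sit at the low end of both, among tumors of the 1 h study.

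ACKR1 is also a marker of other cells, so their marker genes were examined. In these xenografts the host's vessels and blood cells are those of the mouse, whereas the values refer to human genes. How mouse reads were treated is not given, so a human marker at 0 cannot tell whether host cells were present. The cells behind the marker sums below were not tested. The erythroid genes HBB, HBD and AHSP were at 0 in all 91 libraries, and the endothelial genes EMCN, CLDN5 and ERG as well, with PECAM1 at 0 in 79. Other markers of these lists were detected. VWF ran from 0.346 to 2.62 FPKM and CDH5 from 0.230 to 3.53 FPKM. TIE1 reached 7.12, ESAM 2.19 and the erythroid gene HBA2 8.47 FPKM, with 4, 5 and 29 libraries at 0. The sum of 12 endothelial markers, carried by KDR and EGFL7, ranged from 62.4 to 85.6 FPKM in untreated tumors at 24 h, from 59.3 to 96.8 in vehicle and from 54.2 to 116 at 200 mg/kg. In untreated tumors at 3-6 h it ranged from 99.8 to 134 FPKM, so this sum was higher there, as ACKR1 was, and its part in that difference was not tested. The sum of 9 erythroid markers never exceeded 8.47 FPKM. The sum of 8 leukocyte markers, most of it CD68, ranged from 138 to 220 FPKM at 200 mg/kg and from 158 to 236 FPKM in vehicle tumors at 24 h. TYROBP was at 0 in all libraries, whereas CD74 ran from 3.21 to 16.8 FPKM and PTPRC from 0 to 8.24 FPKM. In bulk tumors fewer cells of a type and less RNA per cell cannot be told apart.

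Few relatives and partners of the 5 genes passed the test in the 200 mg/kg contrast at 24 h, beside 3.8% of all tested genes called higher and 3.61% called lower. Of the other carbonic anhydrases 0 of 4 tested were called (1 at an unadjusted p under 0.05), and CA2, the classical cytosolic enzyme, stood at 0.575 against 1.40 FPKM in vehicle (adjusted p = 0.316). One of 29 other Kelch-like genes was called higher, KLHL31 (0.69 ± 0.17, adjusted p = 0.00703). None of 19 DENN domain genes including RAB12, none of 6 genes of platelet-activating factor metabolism and none of 9 atypical chemokine receptors and ACKR1 ligands was called by limma, and 1, 0 and 1 of them had an unadjusted p under 0.05. The median difference of these 9 was -0.73, against 0.04 over all genes.

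Among genes of the pathway K-975 acts on, 8 of 22 YAP1-TEAD targets fell and none rose. CCN2 went from 13.2 to 4.32 FPKM (-1.44 ± 0.21, limma adjusted p = 2.11e-06), CCN1 from 249 to 106 FPKM (-1.26, adjusted p = 1.23e-05) and IGFBP3 from 168 to 52.0 FPKM (-1.80, adjusted p = 0.000203). Of 24 lysosome and autophagy genes 6 rose and 1 fell, with CTSD, a lysosomal protease, at 0.33 ± 0.08 (adjusted p = 0.00429), CTSA at 0.34 (adjusted p = 0.0121) and TFEB, a regulator of lysosomal genes, at 0.76 (adjusted p = 0.0337). At 100 mg/kg against untreated tumors limma called 4 of these 22 targets lower and none higher, and 0 of the 24 lysosome and autophagy genes (6 had an unadjusted p under 0.05). At 200 mg/kg against vehicle 1 of 23 p53 targets rose (XPC, 0.51, adjusted p = 0.00327) and 1 of 11 FOXO targets (TXNIP, 1.38 ± 0.29, adjusted p = 0.000927). Of 10 mesothelial markers 3 rose (CALB2 0.39, KRT19 0.32 and MSLN 0.40) and none fell, and 0 of 6 endothelial, 0 of 1 erythroid and 0 of 6 leukocyte markers tested were called (0, 0 and 1 at an unadjusted p under 0.05). The study's own effector lists, none of whose genes is a member, had 62 of 240 positive effectors lower and 1 higher, and 16 of 195 negative effectors higher and 1 lower. In the 91 libraries 18 genes of the 9 lists of families and pathways were called, and 0 in all 94, where limma called no gene at all in this contrast.

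The genes most like each member over the 91 libraries were found by Pearson's r on log2(FPKM + 1), given as a description since the libraries share studies and arms. KLHL4 was most like CARNS1 (r = 0.76), the gene ranked just outside the 5, then SELENBP1 (0.73) and EPHB6 (0.71). CA11 was most like PCDHGA7 (0.72), CARNS1 (0.70) and INTS3 (0.69). Among the genes close to ACKR1 were SELENBP1 (0.80) and ENSG00000124593 (0.79).

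DENND3 and PAFAH2 had looser likenesses. For DENND3 they were SH3GLB2 (0.56), SELENBP1 (0.56) and SULT1A1 (0.56), and for PAFAH2 they were COL18A1 (0.49), ZKSCAN8 (0.48) and SSC5D (0.48). SELENBP1 was thus among the 3 closest genes of 3 members and CARNS1 of 2. Between pairs of members, which share the contrast that chose them, r ran from 0.06 for PAFAH2 and ACKR1 to 0.55 for CA11 and KLHL4, and from 0.04 to 0.57 in the 34 control libraries.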

How the data were processed

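Single tumors were profiled by RNA-seq after target enrichment with capture probes (KAPA HyperPrep and HyperCap), so a level also depends on capture. The authors deposited 1 table of FPKM with a column for each library. The submitters' processing notes name STAR and GRCh38. The quantification tool and the treatment of mouse reads are not given in the sources used here. Of 20555 entries, 316 further entries of 284 gene IDs were left out, and 32 blank cells were read as 0. Per-library columns not used numbered 0. Relative depth, from the size of the lowest values, ranged from 0.482 to 1.55 in the 91 libraries.

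Time was taken from the study code that a cage group shares with its labelled untreated tumors. Replicates were numbered in accession order and pair nothing. Each library came from its own animal. Log2(FPKM + 1) was fitted with limma 3.58.1 in R 4.3.3 (1 coefficient per group, eBayes with trend and robust), with Benjamini-Hochberg adjustment over 13036 genes and a threshold of 0.05. Intervals are 95% intervals of that fit. The fit was tested on simulated data. Named genes are the 5 members, the next 2 of the ranking, CA2, the 3 genes most like each member and up to 3 called genes per list. XPC, KLHL31 and TXNIP follow from that rule. 1 gene that the rule names for ACKR1 is not reported here. CADM3 and DBP are neighbours by position, and the markers and the comparisons of untreated tumors between studies were named after their values were seen. Members, lists and tests were chosen with earlier results of these data known. Alternatives were all 94 libraries, a pseudocount of 0.1, no filter, quantile and upper-quartile scaling, a fit of only the groups compared, eBayes without trend and robust, the other control group, and leaving out each replicate.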

Additional observations from a re-analysis of the deposited data

Results flagged for a closer look

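Of the 95 sets of values (5 genes in 19 groups of 4 or 5 tumors) 4 held a tumor far from the others of its group, by a limit that chance passes in about 1 of 20 sets. For CA11 these were 1 untreated tumor at 24 h at 38.8 FPKM (the next at 15.0), 1 tumor at 30 mg/kg in the 3-6 h study at 29.7 FPKM (the next at 15.6), and 1 vehicle tumor of that study at 8.41 FPKM (the next at 18.6). For ACKR1 it was 1 tumor at 100 mg/kg and 24 h at 10.4 FPKM (10.45 before rounding), with the next at 5.58.

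The effect of 100 mg/kg on KLHL4 differed between times by the test of the difference itself, by 1.37 on the log2 scale for 24 h minus 3-6 h and by 1.41 for 24 h minus 1 h. The untreated tumors of the 24 h study, which enter both values, were lower in KLHL4 than those of the 3-6 h study (-0.87).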

How the results depend on the processing

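Of 2030 values of single members under an alternative, 64 changed their call or, without a call, changed sign by over 1 standard error. No called value changed sign, and 98 values that were not called did so by any amount. With all 94 libraries the counts of members called higher were 0 for 100 mg/kg and 0 for 30 mg/kg against untreated at 24 h, 0 for 24 h minus 3-6 h and 0 for 24 h minus 1 h. The same fit gave 1 for 100 against 30 mg/kg (CA11, 1.53, adjusted p = 0.0152), where 32.3% of all genes were called, 0 members lower in untreated tumors at 24 h against 3-6 h, and 0 genes of the family and pathway lists. These shifts come with the 3 shallow libraries, the only change in that fit. The 1 call at 30 mg/kg (KLHL4) became 0 without a filter, 0 with quantile normalization and 0 with only the groups compared. Set against vehicle the count was 0 as well, with KLHL4 at 1.07. Those vehicle tumors chose the genes, which favors a higher difference, so a call there would have been no support. With only the groups compared, 100 mg/kg against untreated gave 1 (KLHL4) and the lists 8 genes. The cause was not tested.

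Leaving out 1 tumor gave 1 to 2 members at 100 mg/kg and 0 to 1 at 30 mg/kg against untreated, 0 to 1 for 24 h minus 3-6 h, 0 to 1 for 24 h minus 1 h, 0 to 3 lower in untreated tumors at 24 h against 3-6 h, and 9 to 24 list genes. The lists fell to 9 without tumor 1 at 200 mg/kg, 10 without vehicle tumor 3 and 11 without vehicle tumor 1. No paired analysis was possible because replicate numbers were given in accession order and tie no tumors across groups. FPKM hold no counts, so depth limits low levels such as PAFAH2 to an unknown degree.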
